A study of Homo sapiens with 4 samples.

Results

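The genes described here are 37 genes of mitosis, a list of kinases, cyclins, spindle motors, kinetochore proteins, checkpoint proteins and cytokinesis factors. They were taken by name from the 19798 genes measured on the arrays, with the brightest probe set standing for each gene, and all 37 were found. Total RNA of HCT-116 dicer- cells was measured on 4 one-colour arrays. HCT-116 is a human colon carcinoma line, here with an alteration of Dicer, the enzyme that releases mature microRNAs from their precursors. On 1 array the cells had received a segmented miR-124 guide strand in duplex (G10.12/P, 10 nM), on 1 the intact miR-124 duplex (G/P, 10 nM), and on 2 they were mock-transfected. All cells were collected at 24 h, and all carried the Dicer alteration. The study asked whether a microRNA keeps its seed-based activity after its guide strand is segmented.

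Levels are log2 of the deposited array intensity, and a change is a duplex array minus the mean of the 2 mock arrays. A member was counted as changed where limma's Benjamini-Hochberg adjusted p over all 19798 genes was below 0.05. Each duplex has a single array with no replicate check, so limma assumes that it varies like the mock pair. Whether the mock arrays are separate cultures is not labelled, and the p-values therefore rest on a spread between arrays that may be technical only. Between the mock arrays the members differed by a median of 0.07 and at most 0.26 log2 units. The median array intensity was 45.3 with the segmented duplex, 46.3 with the intact duplex, and 44.3 and 42.6 on the mock arrays. DICER1 had levels of 10.80 with the segmented duplex and 11.13 with the intact duplex, against 11.21 and 11.28 on the mock arrays, and neither change passed the test (limma adjusted p = 0.122 and 0.56). Of 8 colon epithelium markers 5 lay above the median level of all genes on every array, while VIL1, CDH17 and KRT20 did not. With the intact duplex CDH1 and CDX2 passed the test as higher, with changes of 0.79 and 0.69, and 0 of the 8 passed as lower. Of 11 markers of blood, vessel, connective tissue and nerve cells 1, COL1A1, lay above that median on every array, with levels of 9.21 with the segmented duplex and 9.76 with the intact duplex, against 8.71 and 8.41 on the mock arrays. Its part in the results was not tested.

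Mitosis is driven by the kinase CDK1 bound to cyclins A and B. Polo-like and Aurora kinases then build the spindle, and checkpoint proteins on kinetochores hold back the anaphase-promoting complex until every chromosome is attached. Once CDC20 activates that complex, separase cuts cohesin, chromosomes part, and the midzone and contractile ring divide the cell. Most of these genes are transcribed mainly in the later part of the cell cycle, through promoters that often carry CCAAT boxes and a cell cycle homology region. Their summed RNA in a culture therefore follows the share of cells in that part of the cycle as well as the RNA in each cell. In bulk RNA, fewer such cells and less RNA per cell cannot be told apart.

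With the intact duplex, mitosis genes were mostly lower than in mock cells by a modest amount, and with the segmented duplex they lay on both sides of mock. The median change of the 37 members was -0.01 with the segmented duplex and -0.38 with the intact duplex, beside 0.01 and 0.02 over all genes. Centring each array on its median moved every gene alike, by -0.193 and -0.243. The medians of all genes were then -0.181 and -0.227, and those of the members -0.20 and -0.63. The genes called with the intact duplex were then 4080 lower and 1990 higher, against 2064 and 2873 without centring, and with the segmented duplex 1256 and 593, against 531 and 655. With the intact duplex 9 members fell, 1 rose and 27 did not pass, or 24.3% of members lower, against a background of 10.4% of all genes lower and 14.5% higher (24.9% in either direction). Among the 7159 genes at least as bright as the dimmest member, 17.9% fell and 16.9% rose (34.8% in all). The members that fell were BUB1B, MKI67, CCNA2, BIRC5, BUB3, AURKA, TOP2A, ANLN and KIF2C, and the member that rose was NEK2. With the segmented duplex 1 member, MKI67, fell and 0 rose, against a background of 2.68% of all genes lower and 3.31% higher (5.99% in either direction). Among the equally bright genes these were 4.94%, 3.11% and 8.06%. At an unadjusted limma p below 0.05, 20 members were lower and 1 higher with the intact duplex, against 16.9% and 22.6% of all genes and 24.4% and 27.5% of the equally bright ones. By the same measure 5 members were lower and 5 higher with the segmented duplex, against 11.1% and 16.2% of all genes and 15.6% and 19.7% of the equally bright ones.

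The counts depended on how limma set the spread. With the intact duplex 24 members fell and 2 rose when the variance prior followed the level and was robust, beside 15.9% of all genes lower and 23.6% higher. With the segmented duplex 6 fell and 6 rose under that prior, beside 10.3% of all genes lower and 17.1% higher.

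**Figure D1:**
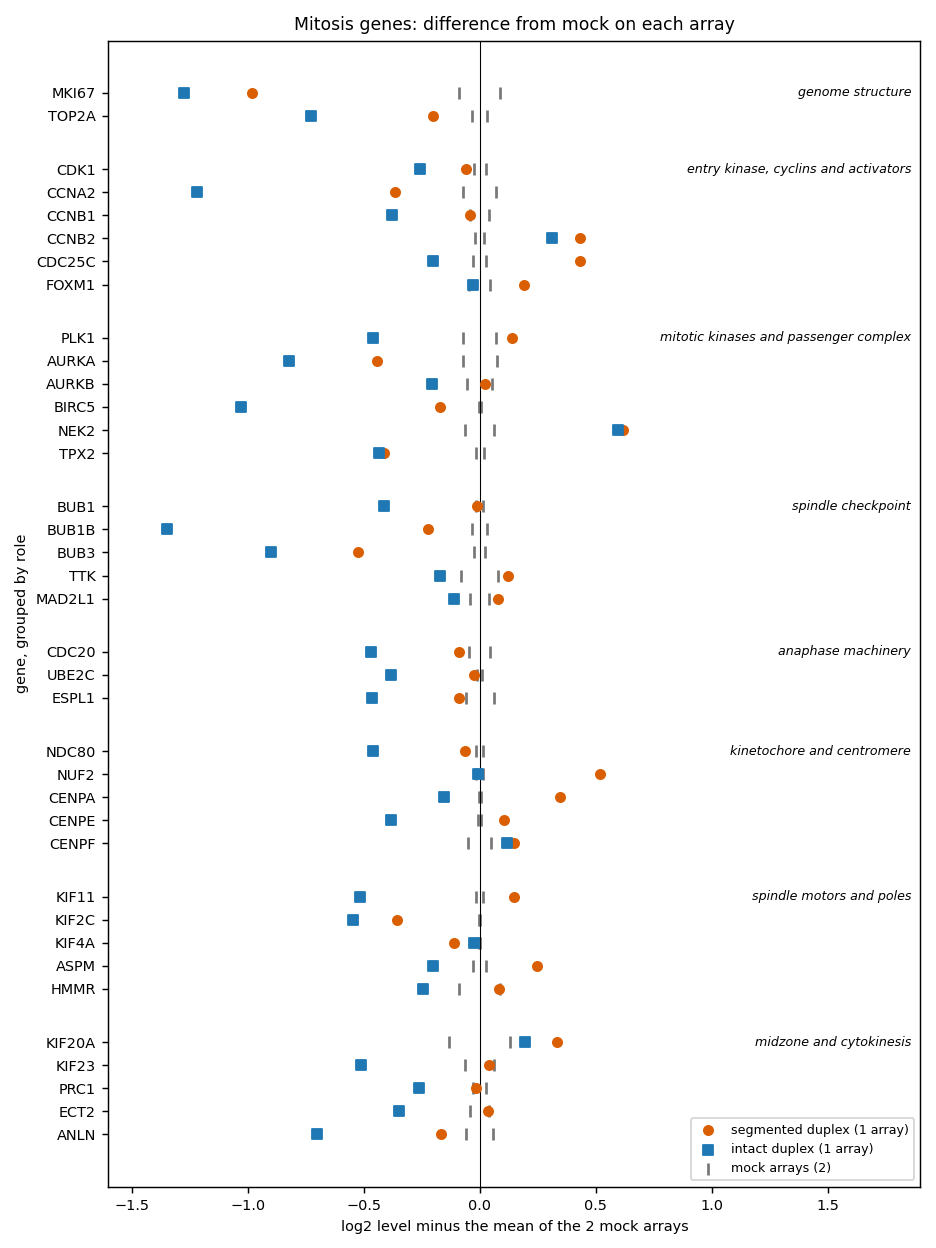
Log2 level minus the mean of the 2 mock arrays for each of 37 mitosis genes, grouped by role. Circles are the segmented duplex (1 array), squares the intact duplex (1 array) and ticks the 2 mock arrays. The squares lie left of 0 for 33 genes and the circles for 19.

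By position alone, 17 members lay below both mock arrays, 14 above both and 6 between them with the segmented duplex. With the intact duplex 31 lay below both, 4 above both and 2 between. Over all genes 37.5% lay below and 42.0% above both mock arrays with the segmented duplex, and 39.8% and 44.0% with the intact duplex. Among the equally bright genes these shares were 38.6% and 51.1% with the segmented duplex, and 42.4% and 50.7% with the intact duplex. At least 1.5-fold below both mock arrays were 1 member with the segmented duplex (4.89% of all genes, 8.23% of bright ones) and 8 with the intact duplex (9.52% and 16.2%). At least 1.5-fold above both were 0 members with either duplex, against 7.37% of all genes and 7.35% of bright ones with the segmented duplex, and 13.7% and 14.7% with the intact duplex. The 4 members above both with the intact duplex were NEK2, CCNB2, KIF20A and CENPF.

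The 250 bases before the gene start in RefSeq (GRCh38.p14) were searched on both strands for TTTGAA, the common form of the cell cycle homology region, and for CCAAT. RefSeq windows were matched for 30 members, 36 windows in all, with more than 1 start for CDK1, CDC25C, AURKB and ECT2. The members AURKA, BIRC5, BUB3, FOXM1, TPX2, TTK and UBE2C are named here without a window. TTTGAA was in 20 of the 36 windows (55.6%), against 13.3% of all 35116 windows. CCAAT was in 27 (75%), against 32.0%, and both were in 17 (47.2%), against 4.69%. The motifs overlapped in 1 of the members' windows, that of MKI67. A match is a description of the letters and not of a bound factor. Of the 9 members that fell with the intact duplex 6 had a window, and 4 of these held TTTGAA. Of the 27 that did not pass 23 had a window, and 14 of these held TTTGAA.

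The 140 bases before the start are shown for 6 members that went different ways, with both motifs in capitals. BUB1B (chr15:40160929-40161068, plus strand), MKI67 (chr10:128126424-128126563, minus strand) and CCNA2 (chr4:121823884-121824023, minus strand) fell with the intact duplex. PLK1 (chr16:23678749-23678888, plus strand) and CCNB2 (chr15:59105006-59105145, plus strand) did not pass, and NEK2 (chr1:211675622-211675761, minus strand) rose. All are written 5′ to 3′ along the gene and end at the base before the start.
BUB1B: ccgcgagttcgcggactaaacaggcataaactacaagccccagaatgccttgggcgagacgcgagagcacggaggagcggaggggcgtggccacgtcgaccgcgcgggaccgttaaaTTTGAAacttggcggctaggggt
MKI67: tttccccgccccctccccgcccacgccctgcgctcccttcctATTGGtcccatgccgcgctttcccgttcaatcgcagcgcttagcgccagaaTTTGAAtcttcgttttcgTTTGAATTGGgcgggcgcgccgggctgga
CCNA2: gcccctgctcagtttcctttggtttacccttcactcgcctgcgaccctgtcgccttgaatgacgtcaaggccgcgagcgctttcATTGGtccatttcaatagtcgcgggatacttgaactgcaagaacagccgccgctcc
PLK1: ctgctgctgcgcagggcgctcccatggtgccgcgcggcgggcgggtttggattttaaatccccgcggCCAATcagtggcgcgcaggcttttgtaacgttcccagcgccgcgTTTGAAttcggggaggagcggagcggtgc
CCNB2: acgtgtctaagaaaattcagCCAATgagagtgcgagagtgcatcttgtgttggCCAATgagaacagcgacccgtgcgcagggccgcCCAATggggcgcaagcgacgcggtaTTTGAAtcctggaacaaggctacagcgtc
NEK2: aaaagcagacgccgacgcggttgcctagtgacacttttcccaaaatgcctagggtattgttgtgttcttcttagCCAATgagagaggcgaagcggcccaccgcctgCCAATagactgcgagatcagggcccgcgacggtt
MKI67, PLK1 and CCNB2 hold both motifs in these stretches. MKI67 fell with both duplexes, and the changes of PLK1 and CCNB2 did not pass. BUB1B holds TTTGAA alone, 23 bases before the start. CCNA2 and NEK2 hold CCAAT without TTTGAA, and CCNA2 fell and NEK2 rose with the intact duplex. Other forms of the cell cycle homology region were not searched, so their absence is not shown. Whether the motifs relate to the changes was not tested.

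The 2 members of chromosome structure were lower with the intact duplex. MKI67, a protein that coats mitotic chromosomes and marks proliferating cells, had levels of 10.73 with the segmented duplex and 10.44 with the intact duplex, against 11.80 and 11.63 on the mock arrays. Both duplex arrays lay well below both mock arrays. MKI67 fell by 1.27 with the intact duplex (2.42-fold, limma SE 0.14, adjusted p = 0.013) and by 0.98 with the segmented duplex (1.98-fold, SE 0.14, adjusted p = 0.0479). The 3 probe sets of MKI67 did not go together. The brightest and the dimmest had changes of -0.98 and -1.03 with the segmented duplex and -1.27 and -1.65 with the intact duplex, whereas the middle probe set had 0.23 and -0.24. With the mean of all probe sets the change of MKI67 with the segmented duplex was -0.59 and missed the threshold (limma adjusted p = 0.0943). TOP2A, the topoisomerase that untangles sister chromosomes, had levels of 11.14 with the segmented duplex and 10.62 with the intact duplex, against 11.31 and 11.38 on the mock arrays. It fell by 0.73 with the intact duplex (1.65-fold, limma adjusted p = 0.027), while its change with the segmented duplex was -0.20.

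**Figure D2:**
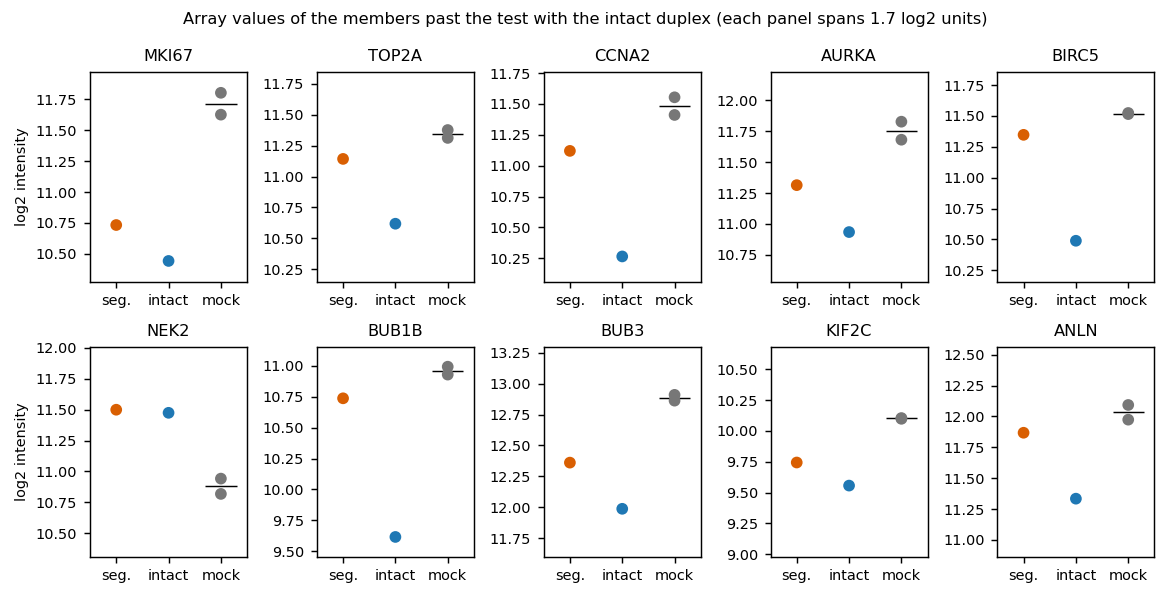
Log2 intensity of the 10 members past limma's threshold with the intact duplex, on the segmented duplex array, the intact duplex array and the 2 mock arrays, with a line at the mock mean. In 9 panels the intact array is the lowest point, and in the panel of NEK2 both duplex arrays lie above both mock arrays.

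Among the 6 members that drive entry into mitosis, CCNA2 alone passed. CCNA2, cyclin A2 of S phase and early mitosis, had levels of 11.12 with the segmented duplex and 10.27 with the intact duplex, against 11.55 and 11.41 on the mock arrays. It fell by 1.22 with the intact duplex (2.33-fold, limma SE 0.14, adjusted p = 0.0129), and the change of -0.36 with the segmented duplex did not pass (adjusted p = 0.197). CDK1, the main mitotic kinase, had levels of 12.27 and 12.08 with the segmented and intact duplex, against 12.36 and 12.31 on the mock arrays. CCNB1, its cyclin B1 partner, had 12.22 and 11.88 in the same order, against 12.22 and 12.30. For both the intact array was the lowest of the 4, by less than 0.4 log2 units below the mock mean, and neither passed. CCNB2, the cyclin B2 gene, had levels of 11.91 and 11.79 with the segmented and intact duplex, against 11.50 and 11.46 on the mock arrays. Its changes of 0.43 and 0.31 did not pass (limma adjusted p = 0.125 and 0.149). The other 2 probe sets of CCNB2 had levels below 4 on every array and gave no common direction. The cyclin genes among the members thus ran from -1.22 for CCNA2 to 0.31 for CCNB2 with the intact duplex.

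CDC25C, a phosphatase that activates CDK1, had levels of 8.94 with the segmented duplex and 8.31 with the intact duplex, against 8.49 and 8.54 on the mock arrays. It lay above both mock arrays with the segmented duplex and below both with the intact duplex, and neither change passed (0.43 and -0.20, limma adjusted p = 0.127 and 0.305). FOXM1, the transcription factor that drives many of these genes late in the cycle, had levels of 11.35 and 11.13 with the segmented and intact duplex, against 11.21 and 11.11 on the mock arrays. The intact value of FOXM1 lay between the mock arrays.

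The Aurora, Polo and NIMA kinases did not move as a block. AURKA, the kinase of centrosomes and spindle poles, had levels of 11.31 with the segmented duplex and 10.93 with the intact duplex, against 11.83 and 11.68 on the mock arrays. AURKA fell by 0.82 with the intact duplex (1.77-fold, limma adjusted p = 0.0258), and its change with the segmented duplex was -0.44 (adjusted p = 0.145). TPX2, which activates AURKA on microtubules, had levels of 11.57 and 11.55 with the segmented and intact duplex, against 12.002 and 11.968 on the mock arrays. TPX2 lay below both mock arrays by a like amount with either duplex, -0.41 and -0.43, and passed with neither (limma adjusted p = 0.134 and 0.0767). BIRC5, or survivin, the passenger subunit that brings AURKB to centromeres, had levels of 11.35 with the segmented duplex and 10.49 with the intact duplex, against 11.52 and 11.51 on the mock arrays. BIRC5 fell by 1.03 with the intact duplex (2.04-fold, limma SE 0.12, adjusted p = 0.0137), and all 4 of its probe sets were lower there. AURKB itself, at 11.45 and 11.23 with the segmented and intact duplex against 11.48 and 11.37 on the mock arrays, did not pass.

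PLK1, the Polo kinase of mitotic entry and spindle assembly, had levels of 10.36 with the segmented duplex and 9.76 with the intact duplex, against 10.29 and 10.15 on the mock arrays. Its intact value lay below both mock arrays and its segmented value above both, with changes of -0.46 and 0.14 that did not pass (limma adjusted p = 0.0856 and 0.565). NEK2, a kinase that splits centrosomes before mitosis, had levels of 11.50 and 11.48 with the segmented and intact duplex, against 10.82 and 10.94 on the mock arrays. NEK2 was higher than both mock arrays with either duplex. It rose by 0.60 with the intact duplex (1.51-fold, limma SE 0.13, adjusted p = 0.0472), and the change of 0.62 with the segmented duplex did not pass (adjusted p = 0.0808). With each array centred on its median the change of NEK2 with the intact duplex was 0.35 and missed the threshold (limma adjusted p = 0.145).

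Among the spindle checkpoint genes, BUB1B and BUB3 fell while BUB1, TTK and MAD2L1 did not pass. BUB1B, which encodes the checkpoint protein BubR1, had levels of 10.74 with the segmented duplex and 9.61 with the intact duplex, against 10.93 and 10.99 on the mock arrays. BUB1B had the largest change of all members with the intact duplex, a fall by 1.35 (2.54-fold, limma SE 0.12, adjusted p = 0.0099), and stood at -0.22 with the segmented duplex. BUB3, the partner that recruits BUB1 and BubR1 to kinetochores, had levels of 12.36 with the segmented duplex and 11.99 with the intact duplex, against 12.91 and 12.86 on the mock arrays. BUB3 fell by 0.90 with the intact duplex (1.87-fold, limma adjusted p = 0.0178), and its change of -0.53 with the segmented duplex did not pass (adjusted p = 0.0923). All 6 probe sets of BUB3 were lower than mock with either duplex, from -0.64 to -0.14 with the segmented duplex and from -1.04 to -0.34 with the intact duplex.

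BUB1, the kinase that builds the checkpoint platform at kinetochores, had levels of 10.58 and 10.17 with the segmented and intact duplex, against 10.57 and 10.60 on the mock arrays. TTK, the kinase that starts checkpoint signalling, had 10.79 and 10.50, against 10.59 and 10.75. MAD2L1, the Mad2 protein that binds CDC20, had 12.66 and 12.47, against 12.54 and 12.62. For these 3 genes the intact array was the lowest of the 4, and the changes of -0.41, -0.17 and -0.11 did not pass (limma adjusted p = 0.0856, 0.434 and 0.574).

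The 3 anaphase genes had like changes from mock, and 0 of them passed. CDC20, the activator of the anaphase-promoting complex, had levels of 12.03 and 11.65 with the segmented and intact duplex, against 12.17 and 12.08 on the mock arrays. UBE2C, the ubiquitin-conjugating enzyme of that complex, had 12.58 and 12.22, against 12.61 and 12.59. ESPL1, separase, had 9.39 and 9.01, against 9.54 and 9.42. All 3 were lowest with the intact duplex, with changes of -0.47, -0.38 and -0.47, and had changes from -0.09 to -0.02 with the segmented duplex. None of the 3 passed with either duplex (limma adjusted p from 0.0728 upwards with the intact duplex).

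Of the 5 kinetochore and centromere members 0 passed with either duplex. NDC80, the microtubule-binding kinetochore subunit, had levels of 11.13 and 10.74 with the segmented and intact duplex, against 11.21 and 11.18 on the mock arrays. NUF2, its partner in the same complex, had 10.98 and 10.45, against 10.48 and 10.45. None of these changes passed, and the difference between the partners was not tested. NDC80 was lower than both mock arrays with the intact duplex (-0.46) and close to mock with the segmented duplex (-0.07), whereas NUF2 was at mock with the intact duplex (-0.01) and higher with the segmented duplex (0.52, limma adjusted p = 0.0933). CENPA, the histone H3 variant that marks centromeres, had levels of 11.59 and 11.09 with the segmented and intact duplex, against 11.24 and 11.25 on the mock arrays. CENPE, a kinesin that moves chromosomes to the spindle equator, had 9.97 and 9.48, against 9.86 and 9.87. CENPF, a kinetochore and nuclear matrix protein, had 10.98 and 10.95, against 10.88 and 10.78. CENPA and CENPE were below both mock arrays with the intact duplex and above both with the segmented duplex, and CENPF was slightly above both with either.

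Of the 5 spindle motor and pole members KIF2C alone passed. KIF2C, a kinesin that depolymerises microtubules and corrects attachments, had levels of 9.74 with the segmented duplex and 9.56 with the intact duplex, against 10.10 on both mock arrays. It fell by 0.54 with the intact duplex (1.46-fold, limma adjusted p = 0.0468), and with the mean of its 2 probe sets it had -0.52 and missed the threshold (adjusted p = 0.0572). KIF11, the kinesin that pushes spindle poles apart, had levels of 11.20 and 10.53 with the segmented and intact duplex, against 11.03 and 11.07 on the mock arrays. Its change of -0.52 with the intact duplex was the closest to the threshold of those that did not pass (limma adjusted p = 0.0533). ASPM, a spindle pole protein, had 10.46 and 10.02, against 10.24 and 10.19. KIF11 and ASPM were above both mock arrays with the segmented duplex and below both with the intact duplex. HMMR, a microtubule-binding spindle protein, had levels of 11.80 and 11.47 with the segmented and intact duplex, against 11.63 and 11.80 on the mock arrays. KIF4A, a chromosome-bound kinesin, had 10.69 and 10.78, against 10.80 on both mock arrays. By its brightest probe set KIF4A was the only member with a lower level on the segmented than on the intact array. The other probe set of KIF4A was higher on the segmented array by 0.028.

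Among the 5 midzone and cytokinesis members ANLN passed. ANLN, anillin of the contractile ring, had levels of 11.87 with the segmented duplex and 11.33 with the intact duplex, against 11.97 and 12.09 on the mock arrays. It fell by 0.70 with the intact duplex (1.62-fold, limma adjusted p = 0.033), with all 3 probe sets lower, and stood at -0.17 with the segmented duplex. KIF23, the kinesin of the centralspindlin complex, had levels of 10.72 and 10.17 with the segmented and intact duplex, against 10.61 and 10.74 on the mock arrays. ECT2, the exchange factor that activates RhoA at the division plane, had 11.30 and 10.92, against 11.22 and 11.31. PRC1, which bundles midzone microtubules, had 11.39 and 11.15, against 11.44 and 11.38. With the segmented duplex these 3 were within the mock pair and with the intact duplex they lay below it, and none passed. KIF20A, the kinesin that carries passenger proteins to the midzone, had levels of 11.08 and 10.95 with the segmented and intact duplex, against 10.88 and 10.62 on the mock arrays, a pair that was further apart than for any other member. It lay above both mock arrays with either duplex.

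Of the 37 members 17 had more than 1 probe set. With the intact duplex all probe sets of a gene had the same sign for 16 of these 17, with CCNB2 the exception, and with the segmented duplex for 13. For the difference between the duplexes they had the same sign for 15, with CCNB2 and KIF4A the exceptions.

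**Figure D3:**
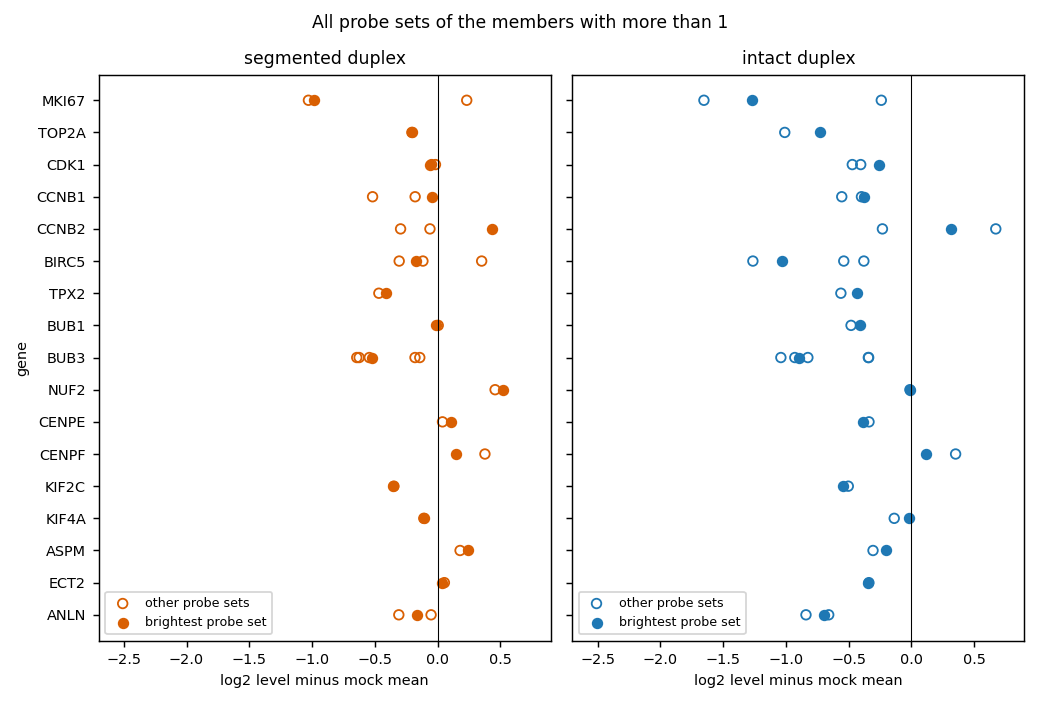
Log2 level minus the mock mean for every probe set of the 17 members with more than 1, with the segmented duplex on the left and the intact duplex on the right. Filled points are the brightest probe set used for the gene and open points the others. For MKI67 1 open point lies apart from the other 2 points in both panels, and the 6 points of BUB3 all lie left of 0.

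The 2 duplexes were compared directly at the same dose and time, as 1 pair. The members were higher with the segmented than with the intact duplex in 36 of 37 cases, with a median difference of 0.38 log2 units. Over all genes 47.1% were higher with the segmented duplex, and the median difference was -0.02. Among genes at least as bright as the dimmest member 48.8% were higher. The 36 members share the same 2 arrays and are not independent, so this count describes these arrays. A further quantile normalization gave 34 of 37 higher, and the mean of all probe sets gave 35. Centring each array on its median gave 36, but it adds 0.05 to every difference, so no positive difference could turn negative.

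In limma's test of the difference 0 of 37 members passed, against 0.0% of all genes, and the lowest adjusted p was 0.181, for BUB1B. At an unadjusted limma p below 0.05, 15 members were higher and 0 lower with the segmented duplex, against 8.31% and 8.22% of all genes and 12.4% and 6.7% of the equally bright ones. The prior that followed the level and was robust called 22 members higher and 0 lower, beside 6.82% of all genes higher and 5.36% lower. BUB1B had the largest difference, 1.12 (95% interval 0.72 to 1.52, limma adjusted p = 0.181). BIRC5 differed by 0.86 (0.47 to 1.25, adjusted p = 0.184) and CCNA2 by 0.86 (0.42 to 1.29, adjusted p = 0.185). These 3 genes are a checkpoint protein, a passenger subunit and a cyclin, and all 3 passed against mock with the intact duplex and not with the segmented duplex. The 6 members at least 1.5-fold higher with the segmented duplex (5.02% of all genes, 7.29% of bright ones) were these 3 and KIF11, CDC25C and PLK1, and 0 were as far lower (4.96% and 2.57%). KIF11 differed by 0.67 (0.27 to 1.06), CDC25C by 0.63 (0.24 to 1.03) and PLK1 by 0.60 (0.16 to 1.04). For 8 members, CDC25C, PLK1, TTK, MAD2L1, CENPA, CENPE, KIF11 and ASPM, the segmented array lay above both mock arrays and the intact array below both, which held for 5.34% of all genes and 5.41% of bright ones. With each array centred on its median, the changes of PLK1, TTK, MAD2L1, CENPE and KIF11 with the segmented duplex turned to -0.052, -0.072, -0.112, -0.087 and -0.044.

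A small group of members stood close together with the 2 duplexes. The differences were 0.02 for NEK2 (95% interval -0.40 to 0.45), 0.02 for TPX2 (-0.37 to 0.42), 0.03 for CENPF (-0.38 to 0.44) and -0.09 for KIF4A (-0.48 to 0.30). These intervals still allow differences of about 0.4 log2 units. For MKI67 the difference was 0.29 (-0.17 to 0.75) and for BUB3 0.37 (-0.02 to 0.77). The intervals come from the spread of the mock pair alone and are not adjusted for the number of genes.

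**Figure D4:**
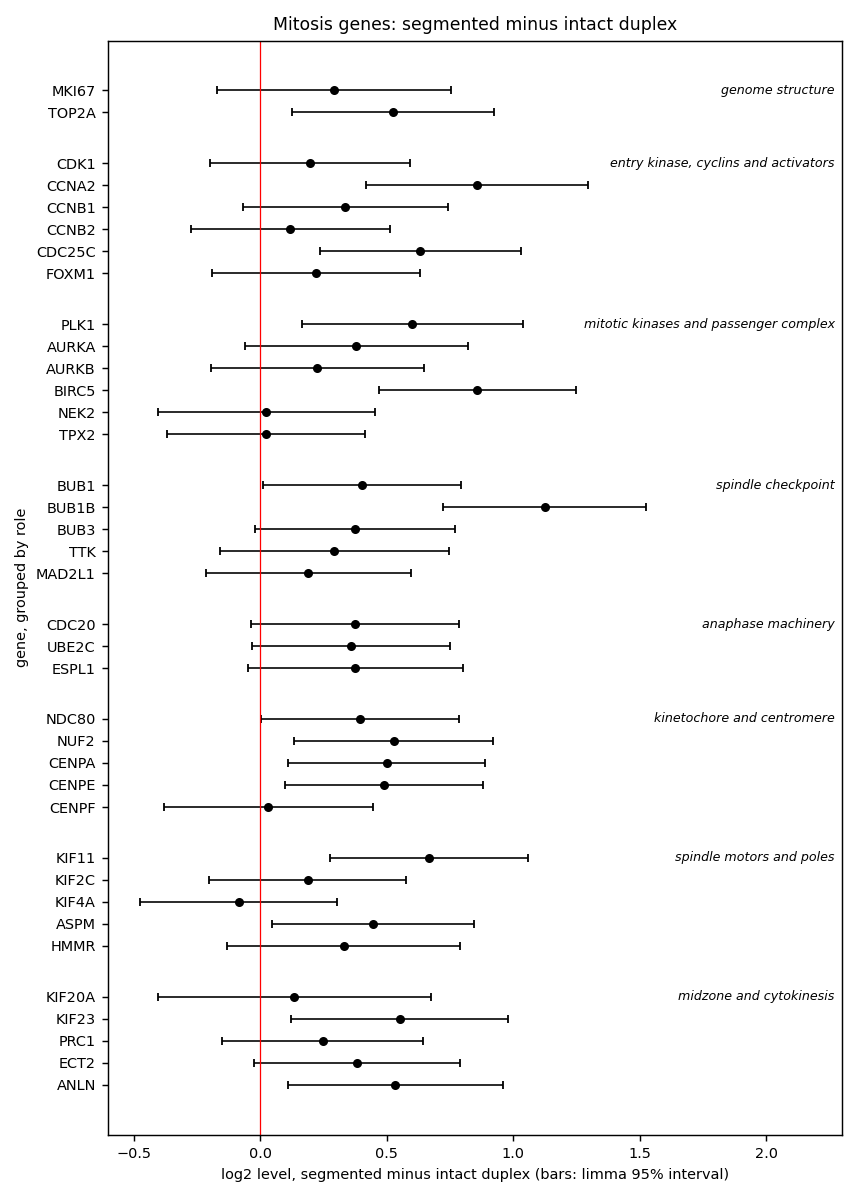
Log2 level with the segmented duplex minus that with the intact duplex for the 37 members, grouped by role, with limma's 95% intervals (not adjusted for the number of genes). Of the 37 points 36 lie right of 0, and 15 intervals do not reach 0.

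Other genes of mitosis were read from lists of partners, chosen with earlier results of these data known. Their counts stand against 2.68% of all genes lower with the segmented duplex and 10.4% with the intact duplex. Among genes at least as bright as the dimmest mitosis member these shares were 4.94% and 17.9%. Some genes on the lists were dimmer than that, among them STAG1, HASPIN and RBL1. Of 18 kinetochore and checkpoint partners 1 fell with the segmented duplex and 8 with the intact duplex, and 0 rose with either (5.56% and 44.4% lower). SKA1, of a complex that couples kinetochores to microtubules, had levels of 10.92 with the segmented duplex and 9.68 with the intact duplex, against 11.79 and 11.71 on the mock arrays. SKA1 fell with both, with changes of -0.83 and -2.08 (limma adjusted p = 0.0492 and 0.00824), and was the gene that passed with the segmented duplex. SPDL1, which brings dynein to kinetochores, fell with the intact duplex (-1.703), as did ZWINT (-1.42) and KNTC1 (-1.22). Of 8 condensin subunits 0 passed with the segmented duplex and 5 fell with the intact duplex, with NCAPH2 (-0.97) and NCAPG (-0.95) the furthest from mock. Of 15 passenger and cohesion genes 1 fell with the segmented duplex, STAG1 (-0.90), and 4 fell with the intact duplex, among them CDCA5, or sororin (-1.84), and HASPIN, a histone kinase of centromeres (-1.39).

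Of 11 genes that control entry into and exit from mitosis 3 fell with the segmented duplex and 4 with the intact duplex. CDC25A, a phosphatase that activates cyclin-dependent kinases, had levels of 9.75 and 8.13 with the segmented and intact duplex, against 10.80 and 10.89 on the mock arrays. MASTL, the Greatwall kinase, had 8.42 and 7.37, against 9.39 and 9.37. ARPP19, the inhibitor of phosphatase PP2A that Greatwall activates, had 10.62 and 9.70, against 12.028 and 11.999. All 3 fell with both duplexes, with changes of -1.10 and -2.72 for CDC25A, -0.96 and -2.01 for MASTL and -1.40 and -2.31 for ARPP19 (limma adjusted p from 0.0354 to 0.0412 with the segmented duplex). The median of this list was 0.09 with the segmented duplex and -0.16 with the intact duplex, since most of its genes stood near mock.

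Of 17 genes of the anaphase-promoting complex and its regulators 1 fell with the segmented duplex and 4 fell and 2 rose with the intact duplex. The shares with the intact duplex were 23.5% lower and 11.8% higher, beside 10.4% and 14.5% of all genes. CDC27, a core subunit, fell with both (-0.92 and -1.69), and FBXO5, or Emi1, an inhibitor of the complex, fell by 1.08 with the intact duplex. Of 17 other spindle and cytokinesis genes 1, KIF15, fell with the segmented duplex (by 0.95) and 4 with the intact duplex, among them KIF15 (-2.21) and KIFC1 (-1.19). Of 13 MuvB, NF-Y and pocket protein genes, which bind the promoters of mitosis genes, 0 passed with the segmented duplex and 2 fell with the intact duplex (15.4%), a share near that of all genes. These were RBL1, the pocket protein p107, (-1.73), and MYBL2, or B-Myb (-1.27).

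The lists of genes of earlier cell cycle stages had larger median changes in the same cells. Of 29 DNA replication genes 6 fell with the segmented duplex and 24 with the intact duplex (20.7% and 82.8%), and 0 rose with either. This compares with 2.68% and 10.4% of all genes lower. Among genes at least as bright as the dimmest mitosis member these shares were 4.94% and 17.9%. Some replication genes, such as ORC1, were dimmer than that. The medians were -0.53 and -1.12, and with the intact duplex the changes ran from -3.578 to 0.357. Of 13 kinases, cyclins and factors of the G1 to S transition 6 fell with the segmented duplex and 9 with the intact duplex (46.2% and 69.2%). The medians were -0.81 and -1.58, and with the intact duplex the changes ran from -3.334 to -0.044. CDC25A is on this list too. The mitosis genes had medians of -0.01 and -0.38, and whether the lists differ was not tested. These lists too were chosen with earlier results of these data known.

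**Figure D5:**
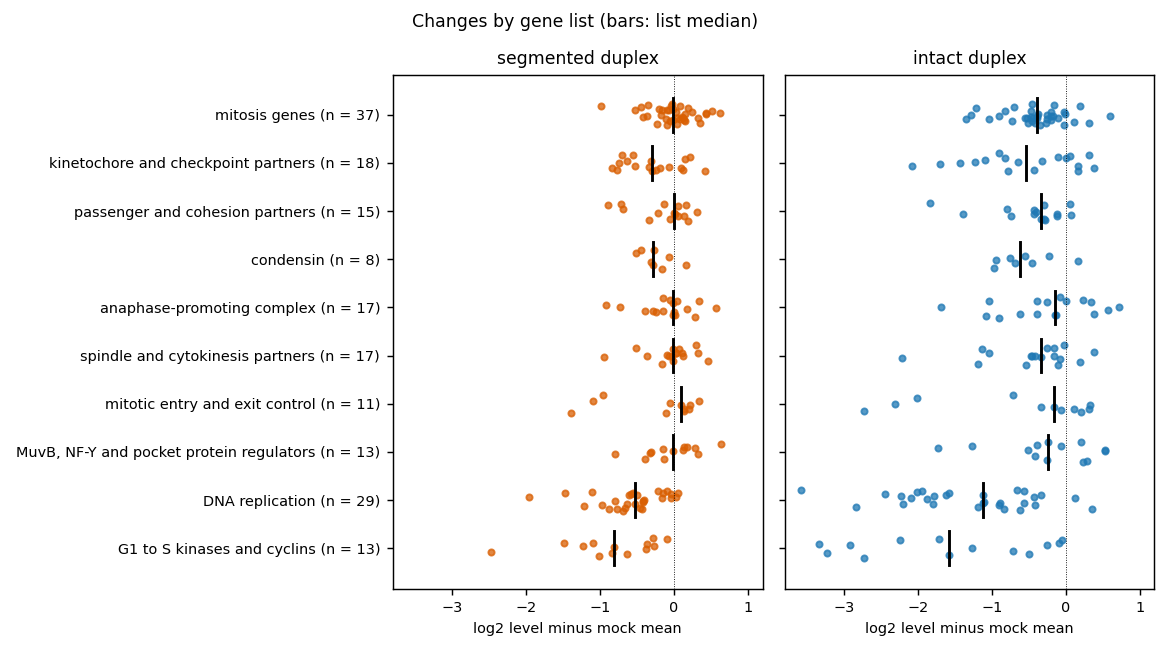
Log2 level minus the mock mean for the 37 mitosis genes and 9 other lists, with the segmented duplex on the left and the intact duplex on the right. Points are genes and bars are list medians. The bar of the mitosis genes is at -0.01 and -0.38, and that of the DNA replication genes at -0.53 and -1.12.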

How the data were processed

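Gene expression was measured on 4 arrays. The deposited intensities were summarised per probe set with RMA (background correction, quantile normalization, summary of probes) per the submitters' processing notes, with the version not given in the sources used here. The sources used here do not state the scale. It was taken as linear because the values run from 2.51 to 22268, and every log2 level rests on that. Quantile normalization removes a change of like size in most genes. Of 52377 probe sets 35184 had 1 gene in the platform annotation, 374 had several and 16819 were not listed, and only the first were used. Symbols were updated through Entrez identifiers to RefSeq (35134 matched). The brightest probe set over the 4 arrays stood for each of 19798 genes. Intensities were taken as log2 with no pseudocount. limma 3.58.1 in R 4.3.3 was fitted to all genes with 1 mean per group and eBayes, with 1 residual degree of freedom and 2.89 prior degrees of freedom. It was also run on simulated data in which the 4 arrays had the same spread for each gene. Such data cannot show whether a duplex array varies like the mock pair. The threshold was a Benjamini-Hochberg adjusted p of 0.05 over all genes.

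The members and lists were chosen with earlier results of these data known. By the rule for named genes any member could be named, and of each other list up to 4 genes past the threshold with the largest change. Promoter windows were read from RefSeq (GRCh38.p14). Also tried were quantile normalization again, centring each array, leaving out the dimmest 40% of genes, a trended and robust prior, the mean of probe sets, a pseudocount of 16, each mock array alone, and a 1.5-fold rule. The number of arrays limits the precision.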

Additional observations from a re-analysis of the deposited data

How the results depend on the processing

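No paired analysis was possible because each duplex has 1 array and carries no replicate number shared with the mock arrays. With the intact duplex the 9 members that fell became 22 with centring, 21 without the dimmest 40% of genes, 24 with the trended and robust prior and 21 with a pseudocount of 16. The 1 that rose became 0, 2, 2 and 2 under these, and 0 by the 1.5-fold rule. The genes called rose too, to 6070, 6950, 7809 and 7022, against 4937. With the intact duplex 20.6%, 24.0%, 15.9% and 14.0% of the genes tested were lower, against 10.4%. With centring 1990 genes were higher, against 2873. Without dim genes, with the trended prior and with the pseudocount 34.5%, 23.6% and 21.4% were higher, against 14.5%. Without dim genes 11879 genes were tested, against 19798. With the segmented duplex the 1 member that fell became 2, 6, 6 and 5 under the same 4 settings, and 0 with the mean of probe sets, and the 0 that rose became 5, 6 and 4 without dim genes, with the trended prior and with the pseudocount. The 1186 genes called became 1849, 4781, 5415 and 4279, and 2428 by the 1.5-fold rule. Under the 4 settings 6.34%, 15.3%, 10.3% and 8.17% of the genes tested were lower, against 2.68%. Higher were 3.0%, 25.0%, 17.1% and 13.4%, against 3.31%. Between the duplexes, 12, 22 and 5 members were higher without dim genes, with the trended prior and with the pseudocount, with 1850, 2412 and 1138 genes called, against 0. Of the genes tested 8.68%, 6.82% and 3.33% were higher there, and 6.89%, 5.36% and 2.41% lower. Leaving out dim genes also tests fewer genes. The cause of the other shifts was not tested.

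The median of the members was -0.63 (intact), -0.20 (segmented) and 0.43 (segmented minus intact) with centring. Centring moved every gene alike, by -0.24, -0.19 and 0.05, and the medians of all genes were then -0.227, -0.181 and 0.031. The median of the members was 0.005 with the segmented duplex after a further quantile normalization. With either mock array alone the median of the members was -0.39 to -0.37 with the intact and -0.014 to -0.003 with the segmented duplex. Signs turned for members that passed in neither setting. With centring these were, with the intact duplex, CENPF (-0.13) and KIF20A (-0.046), and with the segmented duplex FOXM1 (-0.002), PLK1 (-0.052), AURKB (-0.17), TTK (-0.072), MAD2L1 (-0.11), CENPE (-0.087), CENPF (-0.045), KIF11 (-0.044), HMMR (-0.11), KIF23 (-0.15) and ECT2 (-0.16). With a further quantile normalization they were FOXM1 (0.001) and NUF2 (0.006) with the intact and BUB1 (0.005) with the segmented duplex, and NEK2 (-0.009) and TPX2 (-0.002) between the duplexes. With the mean of probe sets CCNB2 differed by -0.23 between the duplexes. With 1 mock array left out, which leaves no test, the turned values were FOXM1 (0.018) and NUF2 (0.005) with the intact duplex, and AURKB (-0.032), BUB1 (0.005), HMMR (-0.001), KIF23 (-0.021), PRC1 (0.013) and ECT2 (-0.006) with the segmented duplex. Of the 10 calls with the intact duplex 8 passed under all 6 alternative tests, and NEK2 and KIF2C under 5.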
